A study of Mus musculus with 12 samples.

Results

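The 10 genes described here encode the subunits of the transcription factor NF-kB (Nfkb1, Nfkb2, Rel, Rela and Relb) and the proteins that hold it back or tune it (the IkB genes Nfkbia, Nfkbib, Nfkbie and Nfkbiz, and Tnfaip3). They were taken by symbol from 31054 genes with counts, all 10 were matched to an identifier in the tables, and all 10 passed the filter on low counts. They were followed in 4 groups of 3 RNA-seq libraries from dendritic cells, the cells that present antigen to T cells, grown from bone marrow of wild-type C57BL6 mice and enriched on day 7 for live cells carrying CD11c. Control cells without further treatment (BMDC), control cells given lipopolysaccharide (BMDC with LPS), cells treated with VitD3 and IL10 to make them tolerogenic (TolDC), and such cells given LPS (TolDC with LPS) made up the groups. LPS is a bacterial cell wall component sensed by Toll-like receptor 4. For LPS, VitD3 and IL10 neither dose nor duration is given in the sources used here. Nothing in the labels tells whether the libraries of a group stem from different mice or cultures, and a p-value then reflects only the scatter among these libraries, which could be technical. The same libraries serve in several comparisons, which are therefore not independent of each other.

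NF-kB proteins act as dimers of the subunits, which share a DNA-binding Rel homology domain. In resting cells the classical IkB proteins keep the dimers in the cytoplasm. Signals from Toll-like receptors activate the IKK kinase complex, IkB is degraded and the dimers enter the nucleus, where they switch on cytokine genes together with genes of their own inhibitors, a negative feedback loop. A slower, alternative pathway downstream of receptors such as CD40 uses Relb with the product of Nfkb2, and in dendritic cells Relb and Rel are known for their part in maturation and in cytokine production.

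In GRCm38, the subunit genes are Nfkb1 (ENSMUSG00000028163, chromosome 3, 135584655 to 135691547, minus strand), Nfkb2 (ENSMUSG00000025225, chromosome 19, 46304320 to 46312385, plus strand), Rel (ENSMUSG00000020275, chromosome 11, 23736847 to 23770970, minus strand), Rela (ENSMUSG00000024927, chromosome 19, 5637483 to 5648130, plus strand) and Relb (ENSMUSG00000002983, chromosome 7, 19606217 to 19629438, minus strand). The other genes are Nfkbia (ENSMUSG00000021025, chromosome 12, 55489410 to 55492647, minus strand), Nfkbib (ENSMUSG00000030595, chromosome 7, 28758251 to 28767512, minus strand), Nfkbie (ENSMUSG00000023947, chromosome 17, 45555703 to 45563169, plus strand), Nfkbiz (ENSMUSG00000035356, chromosome 16, 55811375 to 55838899, minus strand) and Tnfaip3 (ENSMUSG00000019850, chromosome 10, 19000910 to 19015657, minus strand). All 10 are annotated as protein coding. The counts are sums over all exons of a gene, so its isoforms cannot be told apart. Nfkb2 overlaps Psd and a non-coding gene on the opposite strand, and Nfkbib overlaps Sirt2 and Ccer2 on the opposite strand. Reads on the strand opposite to the gene made up 0.598% to 1.44% of the reads at Nfkb2 over the groups and 0.968% to 1.37% at Nfkbib. An unclassified transcript model, Gm43430, lies within Nfkb1 on the same strand.

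RefSeq promoters (GRCm38.p6, 250 bases before to 50 after a transcription start) were found for 7 of the 10 genes, and not for Nfkb1, Relb and Nfkbiz. They are shown for 4 genes that rose with LPS in the counts below and whose promoter holds the kB consensus, the 10-base motif that NF-kB dimers bind, searched on both strands. In capitals are the bases of each match, with overlapping matches run together.

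Nfkb2, chr19:46304487-46304786, plus strand: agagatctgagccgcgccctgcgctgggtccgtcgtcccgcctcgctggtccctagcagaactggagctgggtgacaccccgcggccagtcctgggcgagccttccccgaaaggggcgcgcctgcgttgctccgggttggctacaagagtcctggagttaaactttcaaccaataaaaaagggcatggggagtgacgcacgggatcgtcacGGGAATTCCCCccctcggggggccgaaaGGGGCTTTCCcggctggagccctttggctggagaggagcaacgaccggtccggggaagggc
Rel, chr11:23770920-23771219, minus strand: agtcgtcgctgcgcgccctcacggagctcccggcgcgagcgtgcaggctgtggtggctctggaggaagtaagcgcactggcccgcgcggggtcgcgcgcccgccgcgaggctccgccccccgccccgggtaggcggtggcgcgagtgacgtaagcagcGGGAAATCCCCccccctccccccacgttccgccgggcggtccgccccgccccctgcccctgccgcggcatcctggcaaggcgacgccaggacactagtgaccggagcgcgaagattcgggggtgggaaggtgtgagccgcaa
Nfkbia, chr12:55492598-55492897, minus strand: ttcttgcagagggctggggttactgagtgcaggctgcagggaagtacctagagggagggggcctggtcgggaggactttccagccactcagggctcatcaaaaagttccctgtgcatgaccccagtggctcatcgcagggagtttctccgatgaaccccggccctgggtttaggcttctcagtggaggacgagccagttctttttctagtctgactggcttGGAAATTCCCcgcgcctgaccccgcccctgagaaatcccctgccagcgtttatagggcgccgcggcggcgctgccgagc
Tnfaip3, chr10:19015361-19015660, minus strand: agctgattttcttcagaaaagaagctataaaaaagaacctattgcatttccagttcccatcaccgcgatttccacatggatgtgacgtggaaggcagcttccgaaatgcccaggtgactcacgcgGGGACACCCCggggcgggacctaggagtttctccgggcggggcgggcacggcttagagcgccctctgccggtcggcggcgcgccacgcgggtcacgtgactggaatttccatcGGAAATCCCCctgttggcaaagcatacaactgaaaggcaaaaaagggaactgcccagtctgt

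The matches lie 39 to 29 and 11 to 2 bases before the start in this promoter, the first of 3 listed for Nfkb2, 92 to 82 bases before it in Rel, 29 to 20 in Nfkbia, and 125 to 116 and 12 to 3 in the first of 2 listed for Tnfaip3. Nfkbie has a match 106 to 97 bases before its start. In all, 5 of the 7 genes had a match, against 9.55% of the 27025 genes with a promoter in the table (8.46% of 32851 promoters). In the promoters of Rela and Nfkbib the consensus was not found in this window. A match is a stretch of letters and was not measured as a binding site here.

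The libraries held 21844405 to 41764975 reads assigned to genes, and the fewest reads for any of the 10 genes in a library were 75, for Nfkbiz in a TolDC library. Of the dendritic cell markers, Itgax (CD11c) was at 1250.1 to 2252 CPM (counts per 1000000 of the scaled library total), Cd74, the class II invariant chain, at 4146 to 8833 CPM and Zbtb46, a transcription factor of dendritic cells, at 14.5 to 69.2 CPM, while Flt3, the growth factor receptor of conventional dendritic cells, stayed at 0.0495 to 1.75 CPM. Their shifts between TolDC and BMDC are given beside that comparison. The summed level of 7 macrophage and monocyte markers was 834 to 869 CPM in BMDC, 983 to 1406 CPM in BMDC with LPS, 867 to 882 CPM in TolDC and 1511 to 1918 CPM in TolDC with LPS, so the CD11c-enriched cells also held macrophage transcripts. The library numbered 1 of each group stood apart from the other two in lower neutrophil, mast cell and basophil transcripts: the sum of 8 neutrophil markers was 596 CPM in BMDC replicate 1 and 2423 and 2494 CPM in the others. Every count of the 10 genes called higher or lower given below was the same without the 4 libraries numbered 1. Markers of B cells, of T and NK cells and of red cells summed to at most 1.55, 4.91 and 0.352 CPM.

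All 10 genes rose with LPS in BMDC and all 10 rose in TolDC (edgeR's quasi-likelihood test, Benjamini-Hochberg adjusted p below 0.05 over 13141 genes). As background, 36.7% of all genes tested were called higher in BMDC and 35.4% in TolDC, and 36.4% and 35.9% lower. All libraries with LPS lay above all those without it for all 10 genes in both kinds of cell. The same held for 37.3% of all genes in BMDC and 37.6% in TolDC. At least 2-fold rises were seen in 8 of the 10 in BMDC (not Rel and Rela), where 11.2% of all genes rose as much, and in 8 of the 10 in TolDC (not Rel and Nfkb1), where 9.64% did. Each count turns on a gene at the cut, which is 1 on the log2 scale. Rel in BMDC was at 0.998 and Rela in TolDC at 1.003. Leaving out 1 library moved Rel in BMDC between 0.935 and 1.04 and Rela in TolDC between 0.994 and 1.02. These 2-fold counts were not repeated without the libraries numbered 1. The median log2 change of the 10 was 1.79 in BMDC and 1.87 in TolDC, beside −0.00030 and −0.0017 for all genes. The other 5, the IkB genes and Tnfaip3, had a median of 2.10 in BMDC and 1.87 in TolDC, and the 5 subunits 1.31 and 1.00. In these bulk samples more RNA per cell and more cells of a type that expresses a gene cannot be told apart.

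**Figure D1:**
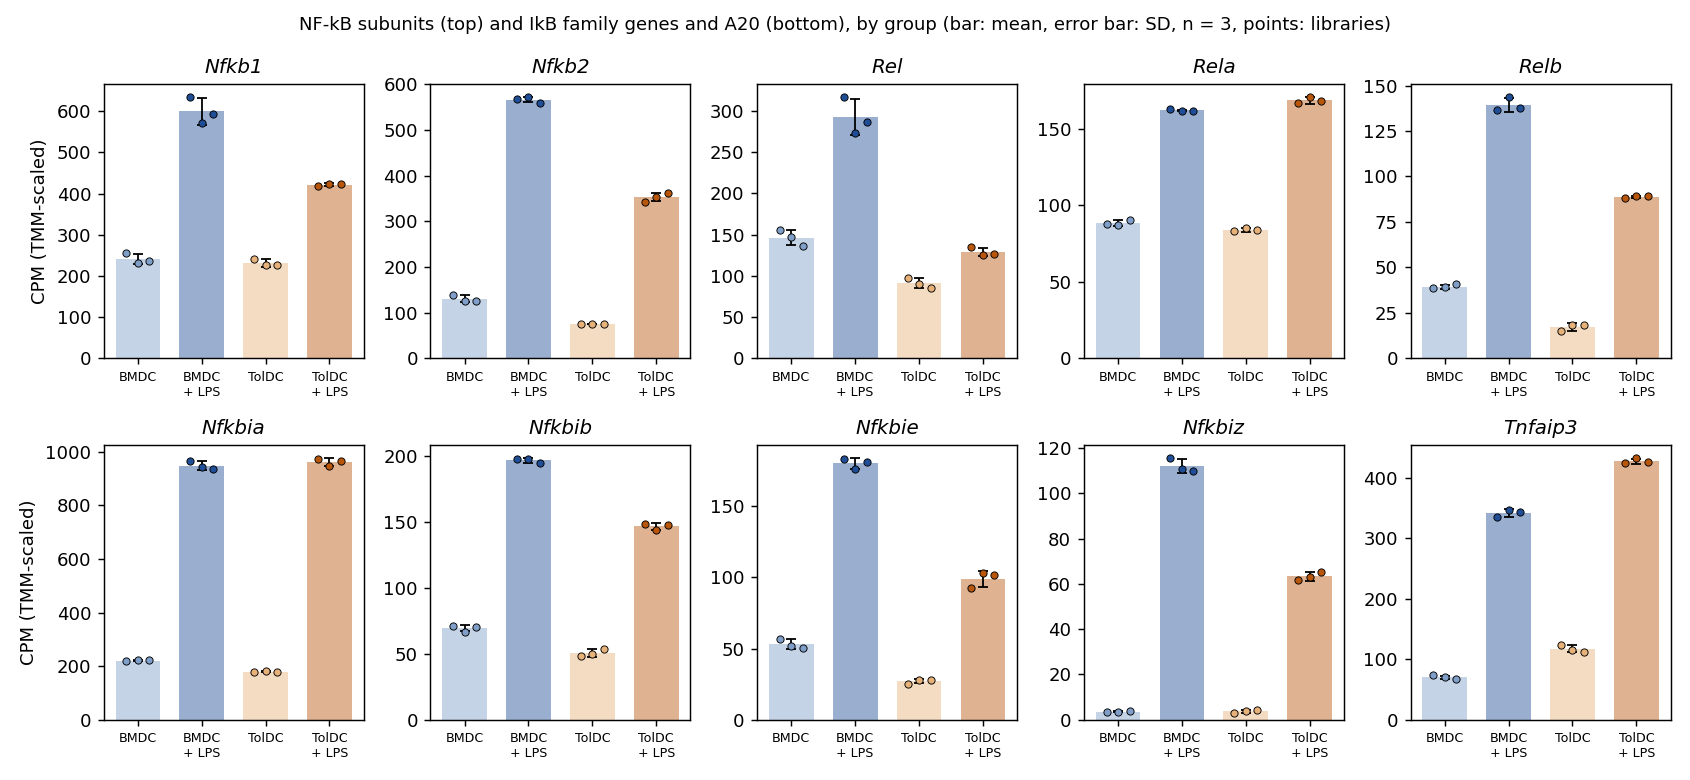
Level of each of the 10 genes (CPM, linear axes from 0) in the 4 groups; bars are means, error bars SD over 3 libraries, points single libraries. In every panel the LPS groups stand above the unstimulated group of the same cells, and Rel in TolDC with LPS stays below unstimulated BMDC.

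Rela, whose p65 protein carries a strong transactivation domain, was the only one of the 10 not called different between TolDC and BMDC either with or without LPS. It was at 88.1, 87.1 and 90.7 CPM in the BMDC libraries and at 163, 162 and 162 CPM in BMDC with LPS. In TolDC it was at 83.02, 85.5 and 83.9 CPM without LPS and at 167, 171 and 168 CPM with it. The TolDC libraries lay just below the BMDC libraries without LPS and just above them with LPS. LPS raised Rela by 0.87 ± 0.034 in BMDC (log2 ± SE, adjusted p = 3.26e-14) and by 1.00 ± 0.034 in TolDC (adjusted p = 4.92e-15). TolDC and BMDC differed by −0.074 without LPS (95% interval −0.15 to −0.0013, edgeR adjusted p = 0.0713) and by 0.057 with LPS (95% interval −0.013 to 0.13, adjusted p = 0.138), neither of which was called. With DESeq2 the difference without LPS was −0.095 and was called, as it was with 3 other settings.

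Nfkb1, which encodes the p105 precursor of the p50 subunit, was at 256, 230.5 and 237 CPM in BMDC and 635, 572 and 593 CPM with LPS. In TolDC it was at 242, 226 and 226 CPM, overlapping BMDC, and at 418, 424 and 422 CPM with LPS, below every BMDC library with LPS. The rise was 1.31 ± 0.047 on the log2 scale in BMDC and 0.87 ± 0.047 in TolDC. Without LPS the cells differed by −0.060 (95% interval −0.16 to 0.039, edgeR adjusted p = 0.282). With LPS, Nfkb1 was lower in TolDC by 0.51 ± 0.046 (adjusted p = 1.51e-08).

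Rel, the c-Rel subunit of lymphoid and myeloid cells, was with LPS the member that stood lowest in TolDC relative to BMDC. In BMDC it stood at 156, 148 and 137 CPM and with LPS at 317, 274 and 287 CPM. In TolDC it stood at 97.4, 90.7 and 85.6 CPM and with LPS at 135, 125 and 126 CPM, so the highest TolDC library with LPS was below the lowest unstimulated BMDC library. LPS raised Rel by 1.00 ± 0.061 in BMDC (edgeR adjusted p = 2.02e-10) and by 0.50 ± 0.062 in TolDC (adjusted p = 1.84e-06). TolDC were lower by 0.68 ± 0.062 without LPS (adjusted p = 6.45e-08) and by 1.19 ± 0.061 with LPS (adjusted p = 3.74e-11), a 2.27-fold difference. In each group, the library numbered 1 held the most Rel, by 0.099 to 0.18 on the log2 scale over the mean of the others. Without those 4 libraries the difference with LPS was −1.16.

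Nfkb2 and Relb, the p100/p52 and RelB partners of the alternative pathway, were both lower in TolDC and both rose several-fold with LPS. Nfkb2 was at 139.6, 126 and 126 CPM in BMDC and 568, 572 and 560.1 CPM with LPS. In TolDC it was at 75.8, 75.2 and 74.97 CPM and with LPS at 343, 354 and 362 CPM. The 4 groups did not overlap, and TolDC were lower by 0.79 ± 0.043 without LPS and by 0.68 ± 0.041 with it (edgeR adjusted p = 1.04e-11 and 3.61e-11). LPS raised Nfkb2 4.34-fold in BMDC (2.12 ± 0.043 on the log2 scale) and 4.69-fold in TolDC (2.23 ± 0.044).

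Relb was at 38.7, 38.98 and 40.6 CPM in BMDC and 137, 144 and 137 CPM with LPS. It was at 15.03, 18.5 and 18.2 CPM in TolDC and 88.3, 89.1 and 89.3 CPM with LPS. Unstimulated TolDC thus held the least Relb, 2.28-fold less than BMDC (−1.19 ± 0.060 on the log2 scale, edgeR adjusted p = 3.26e-12), and with LPS the gap narrowed to 1.57-fold (−0.65 ± 0.049, adjusted p = 1.25e-09). The rise with LPS was 1.82 ± 0.053 in BMDC and 2.36 ± 0.057 in TolDC. The lowest library, TolDC replicate 1 with 379 reads, stood at −0.29 on the log2 scale relative to the mean of the other two.

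Nfkbia encodes IkB-alpha, the inhibitor that is degraded and resynthesised within a single round of NF-kB activity. Its reads per length exceeded those of the other 9 genes in all 4 groups. Nfkbia was at 219, 221 and 223 CPM in BMDC and at 966, 941 and 936 CPM with LPS. In TolDC it started lower, at 176, 180.1 and 179 CPM, and reached 973, 946 and 967 CPM with LPS, where it overlapped BMDC with LPS. The difference between the cells was −0.31 ± 0.034 without LPS (edgeR adjusted p = 2.69e-07) and 0.021 with LPS (95% interval −0.048 to 0.091, adjusted p = 0.583). The rise was 4.29-fold in BMDC and 5.39-fold in TolDC.

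The other classical inhibitors stayed lower in TolDC with and without LPS. Nfkbib (IkB-beta) was at 70.9, 66.8 and 70.4 CPM in BMDC and 48.2, 49.5 and 53.8 CPM in TolDC. With LPS it was at 197, 197 and 194 CPM in BMDC and 148, 144 and 148 CPM in TolDC. Its difference between the cells was −0.46 ± 0.043 without LPS and −0.42 ± 0.040 with it (edgeR adjusted p = 3.39e-08 and 2.74e-08), and LPS raised it 2.83-fold and 2.90-fold in BMDC and TolDC. Nfkbie (IkB-epsilon) was at 56.999, 51.7 and 50.8 CPM in BMDC and 25.4, 28.03 and 28.01 CPM in TolDC. With LPS it was at 183, 176 and 181 CPM in BMDC and 92.7, 103 and 101 CPM in TolDC. Nfkbie was therefore 1.96-fold lower in TolDC without LPS (−0.97 ± 0.056 on the log2 scale, adjusted p = 2.85e-11) and 1.82-fold lower with LPS (−0.86 ± 0.050, adjusted p = 2.05e-11), while LPS raised it 3.39-fold and 3.65-fold.

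Nfkbiz encodes IkB-zeta, a nuclear protein that is made after stimulation and is needed for a later set of NF-kB target genes. Low at rest, it was at 3.24, 3.53 and 3.96 CPM in BMDC and 2.97, 4.04 and 4.19 CPM in TolDC, which overlapped (0.075 on the log2 scale, 95% interval −0.17 to 0.32, edgeR adjusted p = 0.588). With LPS it reached 116, 111 and 109.8 CPM in BMDC and 61.5, 63.2 and 65.2 CPM in TolDC. These were the largest rises of the 10 genes, 31.4-fold in BMDC (4.97 ± 0.076) and 16.9-fold in TolDC (4.08 ± 0.077). TolDC with LPS held 1.77-fold less Nfkbiz than BMDC with LPS (−0.82 ± 0.053, adjusted p = 1.18e-10).

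Tnfaip3 encodes A20, a ubiquitin-editing enzyme that shuts down signalling to IKK, and it alone of the 10 was called higher in TolDC. It was at 73.2, 69.9 and 68.2 CPM in BMDC and 124, 115 and 113 CPM in TolDC. With LPS it was at 335, 347 and 343 CPM in BMDC and 424, 432 and 425 CPM in TolDC. All TolDC libraries were above all BMDC libraries of the same stimulation, by 0.73 ± 0.042 without LPS (edgeR adjusted p = 2.34e-11) and 0.32 ± 0.040 with it (adjusted p = 8.75e-07). LPS raised Tnfaip3 4.85-fold in BMDC and 3.64-fold in TolDC.

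Set against BMDC, then, TolDC without LPS had 6 of the 10 genes lower (Nfkb2, Rel, Relb, Nfkbia, Nfkbib and Nfkbie), 1 higher and 3 not called, where 30.4% of all genes were called lower and 32.0% higher. With LPS, 7 were lower (Nfkb1, Nfkb2, Rel, Relb, Nfkbib, Nfkbie and Nfkbiz), 1 higher and 2 not called, against 33.7% and 34.3% of all genes. Without LPS, all TolDC libraries lay below all BMDC libraries for 7 of the 10 and above them for 1. Of all genes, 32.7% lay wholly below and 34.2% wholly above. With LPS the counts were 7 and 2, beside 34.9% and 36.5% of all genes. The median log2 difference of the 10 was −0.38 without LPS and −0.58 with it, beside 0.0091 and 0.024 for all genes. TolDC also differed in the 9 dendritic cell markers, of which 3 were called higher and 4 lower without LPS, and 2 higher and 6 lower with it. Zbtb46 was at 29.4 to 33.7 CPM in BMDC and 60.3 to 69.2 CPM with LPS, but at 14.5 to 18.6 and 14.7 to 17.9 CPM in TolDC. Ccr7, the homing receptor of mature dendritic cells, was at 164 to 189 and 592 to 611 CPM in BMDC without and with LPS and at 43.3 to 53.8 and 182 to 201 CPM in TolDC. Flt3 and Dpp4 were lower too at both stages, whereas the class II genes H2-Aa and H2-Ab1 were higher at both, H2-Aa at 1051 to 1129 CPM in TolDC against 449 to 471 CPM in BMDC. Ciita, the class II transactivator, was higher without LPS and lower with it, Cd74 was called (lower) with LPS and not without it, and Itgax was not called. Transcripts of other cells also differed. Of 8 neutrophil markers, 4 were called lower in TolDC without LPS and 2 with it, and none higher. The 8 together summed to 596 to 2494 CPM in BMDC and 121 to 614 CPM in TolDC, and to 328 to 1606 and 164 to 484 CPM with LPS. The 5 mast cell and basophil markers summed to 25.3 to 102 and 41.9 to 223 CPM without LPS and to 23.8 to 129.9 and 43.5 to 219.6 CPM with it, with none called. None of these markers was at 0 in all libraries of a group. Their part in the differences of the 10 genes, and that of the macrophage transcripts and dendritic cell markers above, was not tested.

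**Figure D2:**
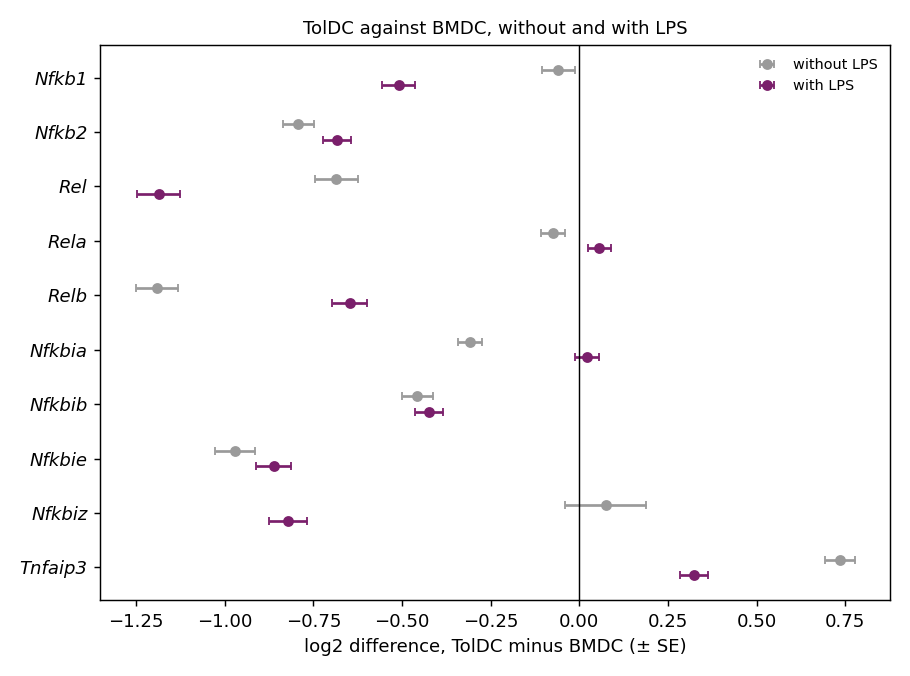
Log2 difference of TolDC from BMDC (horizontal axis, ± SE) for each of the 10 genes, without LPS (grey) and with LPS (purple). Tnfaip3 lies to the right of 0 in both, Rel moves from −0.68 to −1.19, and Rela and Nfkbia with LPS lie at 0.057 and 0.021.

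The size of the LPS response was compared between the cells with the interaction term of the model. For 4 of the 10 genes it was smaller in TolDC and for 3 larger, where 24.0% of all genes were called lower and 20.4% higher. The smaller responses were those of Nfkbiz (−0.90 ± 0.13 on the log2 scale), Rel (−0.50 ± 0.086), Nfkb1 (−0.45 ± 0.066) and Tnfaip3 (−0.41 ± 0.058). Larger responses were found for Relb (0.54 ± 0.077), Nfkbia (0.33 ± 0.047) and Rela (0.13 ± 0.048). The edgeR adjusted p was at most 1.84e-04 for 6 of these 7 and 0.0334 for Rela. The call of Rela was lost on leaving out any of 7 single libraries (BMDC replicate 3, BMDC with LPS replicates 2 and 3, TolDC replicates 1 and 3, TolDC with LPS replicates 2 and 3), with values between 0.12 and 0.14. For Nfkb2 (0.11, 95% interval −0.015 to 0.23), Nfkbib (0.034, 95% interval −0.090 to 0.16) and Nfkbie (0.11, 95% interval −0.049 to 0.27) no difference in response was called. A member with a larger response did not have to end higher: Relb rose more in TolDC and stayed below BMDC, whereas Tnfaip3 rose less and stayed above.

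**Figure D3:**
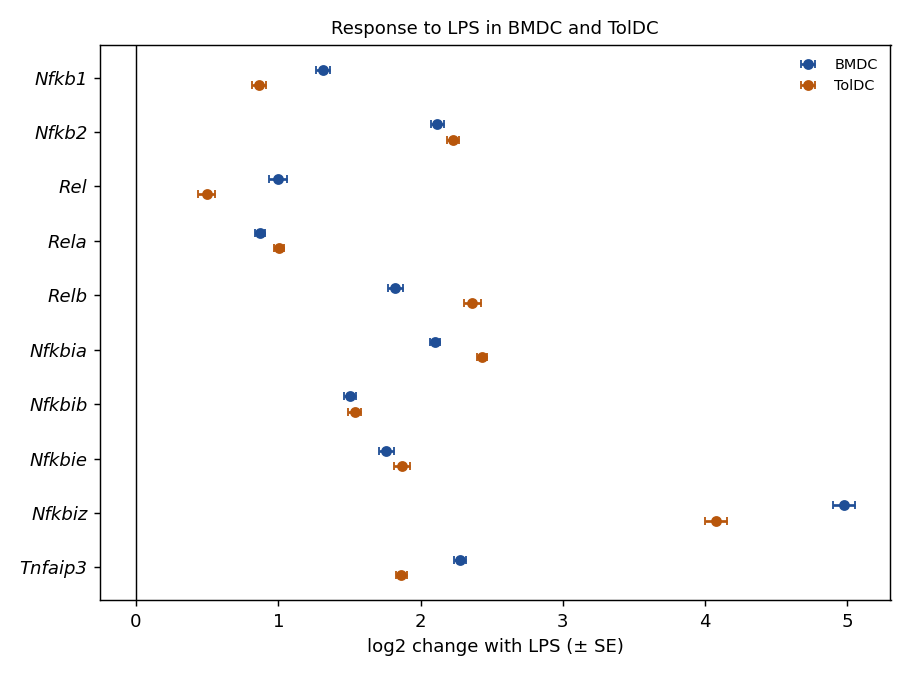
Log2 change with LPS (horizontal axis, ± SE) for each of the 10 genes in BMDC (blue) and in TolDC (orange). All values lie to the right of 0; those of Rel, Nfkb1, Nfkbiz and Tnfaip3 are smaller in TolDC and those of Relb and Nfkbia larger.

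To compare the genes with each other, levels were divided by the length of the annotated exons of each gene. On this scale (CPM per kb), unstimulated BMDC held Rela at 28.8 ± 0.602 and Nfkb2 at 28.5 ± 1.73, Nfkb1 at 19.997 ± 1.08 and Rel at 19.6 ± 1.28, and Relb lowest at 10.2 ± 0.264 (mean ± SD). Rela then made up 26.96% ± 1.11 of the summed level of the 5 (mean ± SD, n = 3). In unstimulated TolDC its share was 34.4% ± 0.732 and that of Relb 5.58% ± 0.673, beside 9.49% ± 0.483 in BMDC. With LPS, Nfkb2 had the largest share on this scale, at 41.1% ± 0.732 in BMDC and 37.2% ± 0.616 in TolDC. That order rests on the divisor, 12061 bases of annotated exons for Nfkb1 and 4584 for Nfkb2. In CPM, Nfkb1 was above Nfkb2 in every group, at 600 against 567 in BMDC with LPS and 422 against 353 in TolDC with LPS. Rel made up 13.01% ± 0.780 in BMDC with LPS and 8.33% ± 0.418 in TolDC with LPS, its lowest share. The ratio of Rel to Rela went from 0.681 ± 0.0553 to 0.743 ± 0.0541 with LPS in BMDC and from 0.446 ± 0.0326 to 0.314 ± 0.0162 in TolDC, so that with LPS it rose in its mean in BMDC, where the groups overlapped, and fell in TolDC, where they did not.

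**Figure D4:**
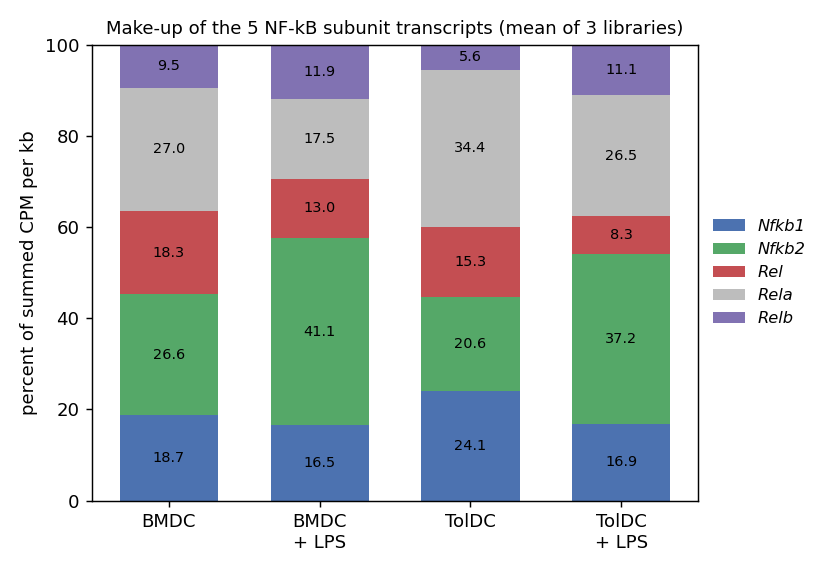
Percent of the summed CPM per kb of the 5 subunit genes (vertical axis) taken by each, as the mean of 3 libraries in each group. The shares depend on the exon length by which each gene was divided. Nfkb2 goes from 26.6% to 41.1% with LPS in BMDC and from 20.6% to 37.2% in TolDC; the Rela share is larger in TolDC than in BMDC at both stages.

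Among the IkB genes and Tnfaip3, Nfkbia stood at 137 ± 1.10 CPM per kb in BMDC, 589 ± 9.74 in BMDC with LPS, 111 ± 1.21 in TolDC and 597 ± 8.73 in TolDC with LPS. Nfkbia made up 69.6% ± 0.859 of the summed level of these 5 genes in BMDC and 77.7% ± 0.392 in TolDC with LPS. Its ratio to Rela was 4.76 ± 0.0827 in BMDC and 4.05 ± 0.0282 in TolDC, and with LPS 11.2 ± 0.146 and 10.9 ± 0.300. Tnfaip3 relative to Nfkbia was at 0.0710 ± 0.00316 in BMDC and 0.146 ± 0.00854 in TolDC without LPS, and at 0.0803 ± 0.00265 and 0.0989 ± 0.00251 with it. Nfkbie relative to Nfkbia was at 0.127 ± 0.00904 and 0.0803 ± 0.00370 without LPS and at 0.101 ± 0.00172 and 0.0545 ± 0.00374 with LPS. At both stages, TolDC thus held less Nfkbie and more Tnfaip3 for each Nfkbia transcript than BMDC, with no overlap between the libraries of the cells.

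The genes of the machinery that activates NF-kB had smaller median changes than the 10 members. The counts for the lists that follow stand beside the shares of all genes called for LPS, 36.7% rising and 36.4% falling in BMDC, and 35.4% and 35.9% in TolDC. Of 12 genes of the IKK complex and its kinases, 9 rose and 1 fell with LPS in BMDC (median log2 change 0.46), and 10 rose and 2 fell in TolDC (median 0.30). Chuk, which encodes the kinase IKK-alpha, changed by 0.0076 ± 0.044 in BMDC (edgeR adjusted p = 0.887, not called) and by −0.26 ± 0.044 in TolDC (adjusted p = 3.75e-05). Ikbkb, the kinase IKK-beta, rose by 0.74 ± 0.041 and 0.40 ± 0.041, and Ikbkg, the scaffold NEMO, by 0.78 ± 0.044 and 1.15 ± 0.043. Ikbke, an IKK-related kinase of the interferon pathway, rose by 1.74 ± 0.050 and 1.83 ± 0.051, and Tank, its adaptor, by 1.07 ± 0.048 and 1.00 ± 0.048. Map3k14, the NIK kinase of the alternative pathway, was at 54.4 ± 1.37 CPM in BMDC and 58.1 ± 2.08 CPM with LPS, and at 49.1 ± 0.869 and 54.3 ± 1.02 CPM in TolDC. In TolDC against BMDC with LPS, 6 of these 12 were lower and 3 higher, where 33.7% of all genes were lower and 34.3% higher, with Ikbke at −0.57 ± 0.048 and Ikbkg at 0.55 ± 0.042.

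Upstream, 11 of 14 genes from TLR4 to IKK rose in BMDC and 2 fell, and 8 rose and 2 fell in TolDC. Tlr4 itself, the LPS receptor, fell from 126 ± 4.90 to 60.3 ± 1.79 CPM in BMDC and from 96.6 ± 1.81 to 51.8 ± 4.02 CPM in TolDC. Cd14, which hands LPS to it, rose by 4.43 ± 0.054 and 4.26 ± 0.053, and Irak3, an inhibitory member of the IRAK family, by 1.76 ± 0.096 and 2.48 ± 0.098. With LPS, Ly96, the TLR4 partner MD-2, was lower in TolDC by 0.57 ± 0.082 and Traf6, a ubiquitin ligase of the pathway, by 0.45 ± 0.044.

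All 6 TRAF and cIAP genes rose with LPS in both kinds of cell. Traf1, an adaptor of TNF receptors and a known NF-kB target, went from 43.7 ± 0.712 to 364 ± 3.99 CPM in BMDC and from 10.3 ± 0.804 to 256 ± 0.473 CPM in TolDC, so it started lower in TolDC and, like Relb, rose more there. Birc3, a ubiquitin ligase that restrains NIK, rose by 1.11 ± 0.047 and 1.19 ± 0.048, and its relative Birc2 was higher in TolDC with LPS by 0.39 ± 0.040. Among 14 genes of ubiquitin editing and feedback, 9 rose and 2 fell in BMDC, and 10 rose and 4 fell in TolDC. Tnip1, which binds A20, rose by 2.37 ± 0.040 and 2.62 ± 0.041 and, as for Nfkbia, no difference between the cells was called with LPS (0.031 ± 0.037, edgeR adjusted p = 0.479). Zc3h12a, an RNase that degrades cytokine transcripts, rose by 2.60 ± 0.046 and 1.70 ± 0.044. With LPS, Tnip3 and Rnf31, the catalytic subunit of the linear ubiquitin ligase, were lower in TolDC, by 0.76 ± 0.041 and 0.74 ± 0.041.

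Further IkB-like and nuclear co-regulators, 9 in the list, had 4 higher and 2 lower with LPS in BMDC and 4 higher and 4 lower in TolDC, near the 36.7% higher and 36.4% lower of all genes in BMDC and the 35.4% and 35.9% in TolDC. Bcl3, an atypical IkB that works with p50 and p52 in the nucleus, rose from 17.9 ± 1.51 to 81.8 ± 2.17 CPM in BMDC and from 20.5 ± 1.76 to 74.8 ± 2.69 CPM in TolDC. Nfkbid, another atypical IkB, rose from 49.9 ± 0.670 to 83.4 ± 3.06 CPM in BMDC but went from 41.97 ± 1.80 to 38.5 ± 0.961 CPM in TolDC, a small fall (−0.12 ± 0.044, edgeR adjusted p = 0.0188). Pdlim2, which targets nuclear p65 for degradation, was higher in TolDC, at 34.9 ± 1.02 CPM against 10.8 ± 0.331 CPM in BMDC, and at 16.5 ± 0.475 against 7.30 ± 1.84 CPM with LPS. Nkrf, a repressor, fell by 0.88 ± 0.099 in BMDC and by 0.75 ± 0.094 in TolDC.

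Of 6 receptors that feed the alternative or TNF pathway, 3 rose and 1 fell with LPS in BMDC, and 3 rose and 2 fell in TolDC. With 36.7% and 35.4% of all genes higher, a count of 3 in 6 is close to the background. The sizes were not: all 3 rose at least 2-fold in both kinds of cell, where 11.2% and 9.64% of all genes did. The median log2 change of the 6 was 1.30 in BMDC and 1.37 in TolDC. It falls between Tnfrsf11a (1.89 and 2.11) and Tnfrsf13c (0.71 and 0.62). Tnfrsf13c, named after its value was seen, was not called for LPS and had group means of at most 0.605 CPM. Cd40 rose by 5.58 ± 0.068 in BMDC and 5.12 ± 0.083 in TolDC, and Tnfrsf1b by 2.32 ± 0.047 and 2.83 ± 0.048. In TolDC against BMDC with LPS, 3 of the 6 were higher and 3 lower. Of the 3 lower, Tnfrsf13c stood at only 0.185 CPM in TolDC with LPS and 0.605 CPM in BMDC with LPS. Cd40 was −2.35 ± 0.054 on the log2 scale in TolDC against BMDC with LPS, Tnfrsf11a (RANK) −0.96 ± 0.11, and Tnfrsf1b (TNFR2) 0.38 ± 0.045. Among 28 well known NF-kB target genes, 27 rose with LPS in BMDC and none fell, and 26 rose and 1 fell in TolDC. The one that fell, named after its value was seen, was Bcl2l1, which encodes a survival protein (−0.16 ± 0.049). With LPS, 17 of the 28 were lower and 9 higher in TolDC, where 33.7% of all genes were lower and 34.3% higher, with a median log2 difference of −0.47 beside 0.024 for all genes. The targets with the largest differences there were Il12b, the p40 chain of IL-12 and IL-23 (−4.41 ± 0.068), and Ccl22, a chemokine of mature dendritic cells (−2.84 ± 0.054), both lower, whereas the neutrophil-attracting Cxcl1 (0.60 ± 0.064) and the prostaglandin enzyme gene Ptgs2 (0.91 ± 0.075) were higher. Ptgs2 was at 0.632 ± 0.161 CPM in BMDC and 591 ± 52.1 CPM with LPS, and at 39.4 ± 2.31 and 1108 ± 104 CPM in TolDC.

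The genes with the most similar pattern over the 12 libraries were sought for each member among 9823 protein-coding genes, by the root mean square (RMS) difference of log2 CPM centred on each gene's mean, which is small when both direction and size of change match. All 12 libraries share the LPS and the treatment groups, so the measure is a description of these samples. For Rela (RMS of its own pattern 0.47) the nearest were Plscr1 (0.041), Vps37c (0.052) and Tapbp (0.054). Nfkb1 (0.58) was nearest to Clic4 (0.062), Dnajb6 (0.065) and Usp3 (0.075), and Rel (0.61) to Kif21b (0.077), Lrrk1 (0.093) and Arl5b (0.10). Nfkb2 (1.1) and Relb (1.2) were each other's nearest members, at 0.17, and shared Atrnl1 and Pde4b among their 3 nearest other genes. For Nfkb2 the closest of all was Pde4b (0.066), and for Relb it was Gstm1 (0.14). Nfkbia (1.1) was nearest to Tnip1 (0.13), the A20-binding feedback gene named above, then Sowahc (0.15) and Il1rn (0.16). Nfkbib (0.79) was nearest to Kdm6b (0.094), Rras (0.096) and Gucd1 (0.11), and Nfkbie (1.02) to Rassf4 (0.099), Rab11fip1 (0.099) and Rabgap1l (0.11). Nfkbiz (2.3), with its much larger change, was nearest to Cd14 (0.28), Isg15 (0.28) and Osbpl3 (0.31). Tnfaip3 (1.1) was nearest to H2-Q7 (0.12), a class I gene with near-identical copies whose counts are uncertain, Mcoln2 (0.15) and Gbe1 (0.15).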

How the data were processed

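Messenger RNA was sequenced in 12 libraries made with a stranded Illumina kit, per the labels. The authors deposited raw read counts per gene, made with cutadapt and STAR on mm10 (GRCm38), per the submitters' processing notes, which also name edgeR and limma; for versions, annotation and settings nothing is given in the sources used here. Of the 3 count columns in the deposited tables, column 4 had 35.2 to 37.3 times the total of column 3 and was used. Assigned reads were 79.3% to 80.6% of those counted, and reads assigned to no gene stayed out of totals and tests. Of 31054 identifiers, 31011 were matched to GENCODE M21, which also gave exon lengths. Genes were filtered with filterByExpr (13141 left) and scaled by TMM factors of 0.945 to 1.04. CPM are counts per 1000000 of the scaled total. A quasi-likelihood model with a mean per group was fitted to all 12 libraries (edgeR 4.0.16, R 4.3.3), and genes called at a Benjamini-Hochberg adjusted p below 0.05 in each contrast. It was tested on simulated data. Intervals are 95% intervals from that model.

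Besides the 10 members, the genes named are, in each pathway list, the 2 called genes with the largest change (at least 5 CPM) for LPS in BMDC and the 2 for TolDC against BMDC with LPS, 7 fixed by name (Bcl3, Nfkbid, Chuk, Ikbkb, Ikbkg, Map3k14 and Tlr4), and the 3 nearest patterns of each member. The members and lists were chosen with earlier results of these data known. Alternatives were DESeq2, limma-voom, other scalings, filters and count columns, a block and leaving out libraries. Libraries of a group differed by more than sampling noise (a chi-square per degree of freedom of 1 over genes) and were counted separately; it was 1.35 to 2.30 between numbers 2 and 3 and 5.16 to 11.6 for pairs with the library numbered 1.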

Additional observations from a re-analysis of the deposited data

Results flagged for a closer look

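For 7 members the LPS response differed between TolDC and BMDC by the interaction term of the model, the log2 difference being −0.45 for Nfkb1, −0.50 for Rel, 0.13 for Rela, 0.54 for Relb, 0.33 for Nfkbia, −0.90 for Nfkbiz and −0.41 for Tnfaip3. The same test called 19 of the genes named by the pathway rule or fixed by name, but not Nkrf, Ikbke, Tank, Map3k14, Tlr4, Cd14, Birc3, Tnip3, Tnfrsf11a and Cxcl1. The nearest patterns were not part of this count. Some of these genes were picked for a large difference between the cells with LPS, which enters the interaction term. Their count can therefore not be set against the share of all genes. Among the atypical IkB genes and co-regulators the difference was −0.33 for Bcl3, −0.50 for Pdlim2 and −0.86 for Nfkbid. In the IKK complex it was −0.27 for Chuk, −0.34 for Ikbkb and 0.38 for Ikbkg. Upstream and at the TRAF step it was 0.71 for Irak3, −0.39 for Ly96, −0.19 for Traf6, 1.58 for Traf1 and 0.21 for Birc2. Feedback genes gave −0.90 for Zc3h12a, 0.24 for Tnip1 and −0.59 for Rnf31. Receptors gave −0.47 for Cd40 and 0.50 for Tnfrsf1b, and targets −5.07 for Ptgs2, −1.68 for Il12b and −1.27 for Ccl22. The value of Ptgs2 rests on its low level in BMDC without LPS, 0.632 CPM against 39.4 CPM in TolDC. With LPS, Ptgs2 was higher in TolDC. In this model 20.4% of all 13141 genes were called higher and 24.0% lower by the same test.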

How the results depend on the processing

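Of 900 values of the members under 23 alternatives, 884 kept their direction and their side of the threshold. The 3 that changed sign were of differences not called: Nfkbiz in TolDC against BMDC without LPS (−0.023 without TolDC replicate 3, and 0.21 at most, without TolDC replicate 1), Nfkbia in TolDC against BMDC with LPS (−0.000563 with library totals only) and Nfkbib in the difference between responses (−0.021 without the 4 libraries numbered 1). Rela was called lower in TolDC without LPS with column 2 (−0.095), DESeq2 (−0.095), RLE factors (−0.095) and the filter of 1 CPM in 3 libraries (−0.080), and its larger LPS response in TolDC was not called with library totals (0.11) or with libraries 2 and 3 summed (0.13). All counts of members and of all genes called stayed within 1.5 times. Same-numbered libraries were not taken as pairs, since the labels tie the number to nothing shared. Correlations of same-numbered libraries ran from 0.091 to 0.47. Of 18 pairs, 17 were over 0.1, and 6 of 12 libraries correlated best with their own number in every other group. Libraries numbered 1 correlated with each other at 0.33 to 0.47, and with numbers 2 and 3 of other groups at −0.37 to −0.16. They thus deviated in a shared way. With the number as a replicate block, 10 members were higher for LPS in BMDC and 10 in TolDC, 6 and 7 lower in TolDC without and with LPS, and no call of a member changed.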
